A study of Homo sapiens with 17 samples.

Results

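The levels of 33 genes of homologous recombination, the Fanconi pathway, mismatch repair and the DNA damage kinases were followed through oncogene-induced senescence and SMARCA4 knockdown. The genes were chosen by name, from what their products do, and with earlier results of these data known. All 33 were matched by symbol among the 62754 genes of the count tables, and all 33 were among the 19473 genes that had enough counts to be tested. The cells were IMR90 ER:RAS, human lung fibroblasts that carry a retroviral fusion of RAS G12V with an oestrogen receptor domain. In these cells 4-hydroxytamoxifen (4OHT) switches the oncogene on, and senescence follows. Every library, controls included, came from cells with this construct that had been transfected with an siRNA 1 day before 4OHT or its solvent control DMSO, and RNA was taken on day 7. The groups were DMSO with non-targeting siRNA (DMSO siNT, n = 5), 4OHT with non-targeting siRNA (4OHT siNT, n = 6) and 4OHT with siRNA against SMARCA4 (4OHT siSMARCA4, n = 6). No group combined DMSO with siSMARCA4, so an effect of the knockdown outside senescence was not measured.

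Homologous recombination repairs broken DNA by copying from the sister chromatid, and so works mainly in S and G2 phase. The Fanconi pathway detects a replication fork stalled at a DNA crosslink, ubiquitinates the FANCD2-FANCI clamp and passes the lesion to nucleases and recombination. Mismatch repair removes errors left by the replicative polymerases, and the kinases ATM and ATR signal damage through CHEK2 and CHEK1. Many of these genes are transcribed with the cell cycle under E2F and the DREAM complex, and cells that have left the cycle in senescence are known to express them weakly. SMARCA4 is a motor subunit of SWI/SNF, which moves nucleosomes.

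The libraries held 39109479 to 68978119 counts, with TMM scaling factors near 1. Levels are given as counts per 1000000 counts of TMM-scaled library size (CPM), with SD between libraries. SMARCA4 was at 268 ± 13.2 CPM in 4OHT siNT (n = 6) and 88.1 ± 22.8 CPM in 4OHT siSMARCA4 (n = 6), and at 198 ± 19.2 CPM in DMSO siNT (n = 5). The knockdown measured -1.61 on the log2 scale (SE 0.13, adjusted p 5.14e-07 by edgeR). All 10 fibroblast markers had counts in every library, and their sum went from 25836 CPM in DMSO siNT to 16006 CPM in 4OHT siNT and 9620 CPM in 4OHT siSMARCA4 (group means). COL1A1 (10772, 6294 and 2292 CPM) and COL1A2 (6533, 2043 and 728 CPM) made up most of that difference. DCN (549, 15.8 and 9.19 CPM), LUM (66.3, 20.9 and 12.2 CPM) and THY1 (705, 359 and 161 CPM) also fell at each step. So did PDGFRB (189, 117 and 48.2 CPM) and COL3A1 (775, 445 and 221 CPM). VIM was at 5985, 5967 and 5720 CPM, and FAP and POSTN were higher in both 4OHT groups than in DMSO. The 5 epithelial markers summed to 0.905, 0.403 and 0.245 CPM in the same order, with KRT5 and KRT14 at 0 in every library. The 4 endothelial markers summed to 1.25, 5.10 and 3.17 CPM, mostly VWF, and the 5 leukocyte markers to 22.7, 26.2 and 25.3 CPM, nearly all CD68. The part of these markers in the results was not tested. The labels also carried an siRNA number (2 or 4), a replicate number and a tag, V or VM, whose meaning they do not give. The VM tag was on all 6 libraries of 4OHT siNT, on 3 of 5 from DMSO and on 3 of 6 with siSMARCA4. Libraries are named below by siRNA number, replicate number and tag, as in 2-3VM. The labels do not say that they came from separate cultures, so the p-values measure the spread between these libraries, which may be technical. Some libraries of a group shared both numbers and differed only in the tag. These were 2-2V and 2-2VM in DMSO siNT, and 2-3V with 2-3VM and 4-2V with 4-2VM in siSMARCA4. Whether such a pair came from the same culture is not given. Nor can fewer cells that express a gene be told apart from less RNA per cell.

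Promoters were searched for letters bound by E2F, because the members moved together with cell cycle genes. A RefSeq promoter (GRCh38.p14, 250 bases before to 50 after the start) was found for 30 of the 33 genes. The E2F letters searched on both strands were TTTCGCGC, TTTCGCGG, TTTGGCGC, TTTGGCGG, TTTCCCGC, TTCCCGCC and TTTGCCGC, of which TTTCCCGC and TTCCCGCC can overlap. They occurred in 14 of the 30 member promoters (46.7%) and in 6.54% of all 27305 promoters. They occurred in 7 of the 10 members whose level fell by more than 2 on the log2 scale with 4OHT, in 6 of the 12 other members that were lower, and in 1 of the 8 that were not lower (PMS2). The letters CCAAT were in 53.3% of member promoters against 35.7% of all. In the same order by size of fall, CCAAT was in 4 of 10, 6 of 12 and 6 of 8 members. The cell cycle homology region letters TTTGAA and TTCGAA were in 3 of the 30, against 16.6% of all. These shares describe letters in a window and were not matched on base composition. Binding of E2F to these promoters, and its part in the fall, was not tested. For contrast, 4 sequences with E2F letters and 2 without are shown from 100 bases before to 30 after the start, in the direction of transcription, with the E2F letters of either strand in capitals. FANCD2, BLM and EXO1 are among the members that fell most, MSH6 is a mismatch repair gene that fell less, ATM was the member called higher and TP53BP1 was not called. They lie at chr3:10026337-10026466 (plus strand), chr15:90717246-90717375 (plus), chr1:241848104-241848233 (plus), chr2:47783045-47783174 (plus), chr11:108222967-108223096 (plus) and chr15:43510611-43510740 (minus) in this order.
FANCD2: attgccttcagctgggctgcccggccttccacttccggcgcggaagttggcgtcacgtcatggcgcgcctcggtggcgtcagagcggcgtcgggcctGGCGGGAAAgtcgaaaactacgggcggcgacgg
BLM: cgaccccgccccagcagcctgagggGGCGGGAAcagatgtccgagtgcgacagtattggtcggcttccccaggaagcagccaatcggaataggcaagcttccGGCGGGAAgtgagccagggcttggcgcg
EXO1: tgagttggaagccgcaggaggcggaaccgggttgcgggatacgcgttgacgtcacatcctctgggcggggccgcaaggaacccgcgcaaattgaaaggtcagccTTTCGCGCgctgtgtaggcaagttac
MSH6: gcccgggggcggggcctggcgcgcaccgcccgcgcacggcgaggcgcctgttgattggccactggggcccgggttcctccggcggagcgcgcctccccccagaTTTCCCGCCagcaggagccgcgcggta
ATM: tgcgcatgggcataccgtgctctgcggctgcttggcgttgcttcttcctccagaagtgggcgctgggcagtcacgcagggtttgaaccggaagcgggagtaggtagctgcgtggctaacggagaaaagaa
TP53BP1: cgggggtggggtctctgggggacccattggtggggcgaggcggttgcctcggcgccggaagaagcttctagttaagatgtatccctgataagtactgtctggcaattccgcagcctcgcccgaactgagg

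To ask what senescence changed, 4OHT siNT was compared with DMSO siNT. Of the 33 members, 24 were called lower, 1 was called higher (ATM) and 8 were not called, at an edgeR adjusted p under 0.05 over all genes tested. The called share was 75.8%, where 54.4% of all genes were called, 27.4% lower and 27% higher. The median log2 fold change of the members was -1.34, against 0.00 over all genes. The fall exceeded 1 on the log2 scale in 18 members and 2 in 10 of them. In 23 members every 4OHT siNT library lay below every DMSO siNT library, and in 0 did every one lie above (39.6% of all genes did not overlap in either direction). Genes of the cell cycle moved with them: all 21 genes of a proliferation list were called lower with a median of -3.23, and MKI67 went from 21.2 to 73.7 CPM in the DMSO libraries to 0.654 to 1.29 CPM in 4OHT siNT. How far the members' fall follows the loss of cycling cells was not tested.

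**Figure D1:**
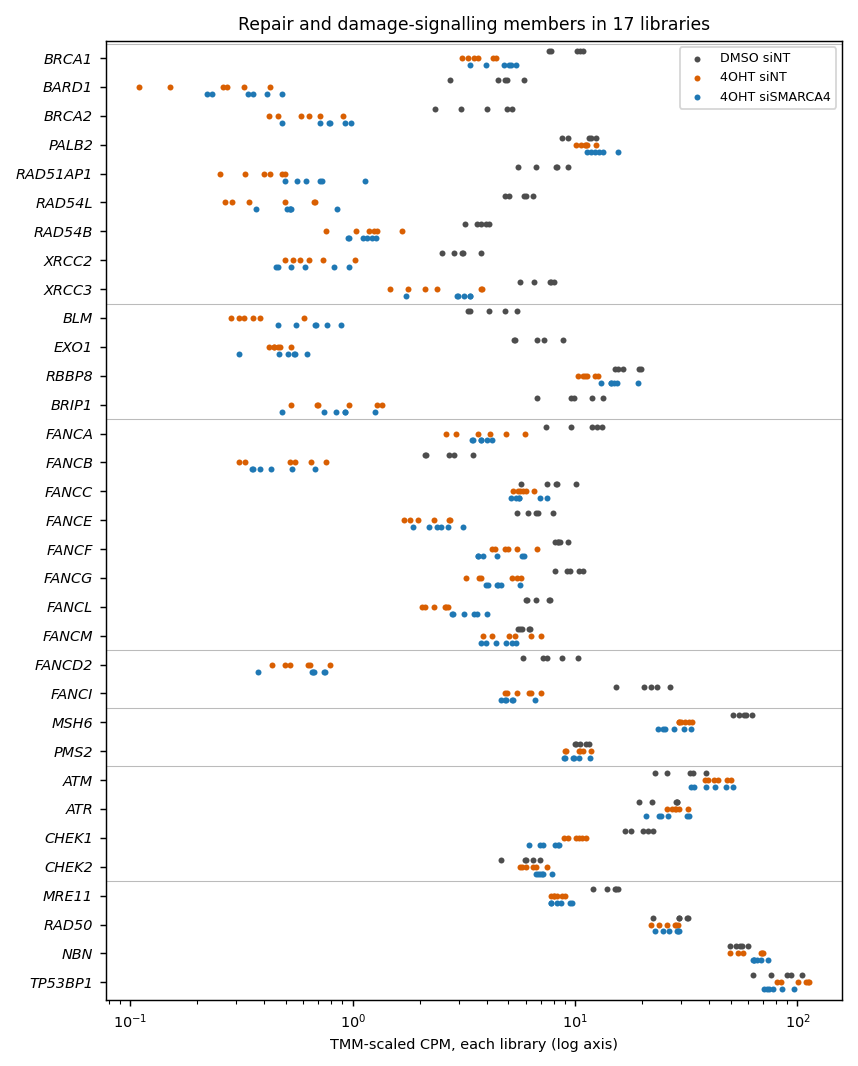
Levels of the 33 members, grouped by role from top (recombination; resection and helicases; Fanconi core; FANCD2-FANCI; mismatch repair; kinases; MRN complex and TP53BP1), as TMM-scaled CPM on a log axis; each point is 1 library of DMSO siNT (grey, n = 5), 4OHT siNT (orange, n = 6) or 4OHT siSMARCA4 (blue, n = 6). The grey points stand clear to the right of the orange in 23 rows, and the orange and blue points overlap in 29.

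Among 9 recombination genes, 8 were lower, with a median of -2.201 for the group. RAD51AP1 (chr12:4538798-4560047), which stimulates strand invasion by the recombinase, was at 6.67, 8.18, 5.55, 8.27 and 9.31 CPM in the DMSO libraries. In 4OHT siNT its lowest, median and highest values were 0.254, 0.412 and 0.497 CPM. The lowest DMSO library thus stood far above the highest 4OHT library, and the mean was 5.23% of the DMSO mean (log2 fold change -4.25, SE 0.22, adjusted p 1.22e-11). BARD1 (chr2:214725646-214809683), the obligate partner of BRCA1 in a ubiquitin ligase, was at 4.92, 5.91, 4.84, 4.51 and 2.75 CPM in DMSO. In 4OHT siNT it ranged from 0.11 through a median of 0.267 to 0.427 CPM, which is 5 to 24 counts a library. Its log2 fold change of -4.13 (SE 0.29, adjusted p 7.63e-10) was close to that of RAD51AP1. BRCA1 itself fell less, to 39.4% of its DMSO level (log2 fold change -1.34, SE 0.14). Its 5 DMSO libraries lay between 7.65 and 10.9 CPM and its 6 4OHT siNT libraries between 3.10 and 4.41 CPM.

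BRCA2, which loads the recombinase onto single-stranded DNA, was at 4.03, 5.21, 3.07, 4.96 and 2.35 CPM in DMSO and at 0.419, 0.611 and 0.901 CPM (lowest, median, highest) in 4OHT siNT. Its log2 fold change was -2.65 (SE 0.24, adjusted p 2.44e-08). PALB2, which bridges BRCA1 and BRCA2, was at 10.7 ± 1.62 CPM (n = 5) and 11.1 ± 0.781 CPM (n = 6), and was not called (0.05, 95% interval -0.16 to 0.27). The interval leaves room for neither a fall nor a rise of the size seen in BRCA2. The translocases RAD54L (log2 fold change -3.61) and RAD54B (-1.64) fell, as did the recombinase paralogues XRCC2 (from 3.08 ± 0.451 to 0.668 ± 0.192 CPM) and XRCC3 (-1.48). In each of these 4 the groups did not overlap. The promoters of BRCA1, BARD1 and BRCA2 held none of the E2F letters searched. The search took a single promoter window per gene and these exact letters, so sites elsewhere or with other letters would not be seen. RAD54B overlaps FSBP on the same strand, and BRCA1 an unnamed long noncoding gene, so reads could be divided between these pairs.

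The ratios between members that work together were compared between DMSO and 4OHT siNT. The log2 ratio of BARD1 to BRCA1 in CPM was -1.497 to -0.66 across DMSO libraries and -4.91 to -2.86 across 4OHT siNT libraries. That of BRCA2 to PALB2 was -1.90 to -1.17 and then -4.75 to -3.79. For FANCD2 to FANCI it was -1.55 to -1.38 and then -3.87 to -3.11. For none of these 3 pairs did the ranges meet. Nor did they for MRE11 to RAD50 (-1.28 to -0.68 and then -1.81 to -1.497), MSH6 to PMS2 (2.28 to 2.56 and then 1.499 to 1.77) or RBBP8 to BRCA1 (0.57 to 1.08 and then 1.27 to 1.98), nor for CHEK1 to CHEK2 and TP53BP1 to BRCA1, whose values are given further on. They overlapped for NBN to RAD50 (0.71 to 1.33 and then 1.06 to 1.29), ATM to ATR (0.21 to 0.44 and then 0.43 to 0.71), FANCM to FANCA (-1.20 to -0.43 and then -0.62 to 1.28) and BLM to EXO1 (-0.72 to -0.58 and then -0.74 to 0.52). These ratios describe changes in CPM and do not compare levels per length. The pairs were picked by function, and their ratios restate the changes of single members. No share was taken over other pairs of genes. The levels of RAD50 and PMS2 are themselves uncertain, as given below.

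Of the genes of resection and the helicases, 4 of 4 were lower, with a median of -3.49. EXO1 (chr1:241847967-241895148), a nuclease of resection and of mismatch repair, was at 7.23, 8.82, 5.38, 6.74 and 5.32 CPM in DMSO and at 0.419, 0.453 and 0.527 CPM (lowest, median, highest) in 4OHT siNT. The 4OHT libraries were tightly grouped at 6.88% of the DMSO mean (log2 fold change -3.85, SE 0.18, edgeR adjusted p 2.25e-12). BLM (chr15:90717346-90816166), the helicase that dissolves joined recombination intermediates, was at 4.84, 5.47, 3.296, 4.11 and 3.37 CPM in DMSO and at 0.284, 0.341 and 0.602 CPM in 4OHT siNT (log2 fold change -3.49, SE 0.22, edgeR adjusted p 1.40e-10). BRIP1, a helicase that binds BRCA1, fell to 8.92% of DMSO (-3.49, SE 0.26). RBBP8 (chr18:22798261-23026488), also known as CtIP, starts resection with the MRN complex. It kept 66.0% of its DMSO level (-0.60, SE 0.10, edgeR adjusted p 5.28e-05), with 15.1 to 19.8 CPM in DMSO against 10.3 to 12.6 CPM.

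The Fanconi core complex is the ubiquitin ligase for FANCD2 and FANCI, and 7 of its 8 members were lower, with a median of -1.26. FANCB had the lowest log2 fold change (-2.35, SE 0.24), followed by FANCE (-1.58), FANCL (-1.503), FANCA (-1.44), FANCG (-1.09) and FANCF (-0.74). In these 6 the groups did not overlap. FANCG overlaps, on the same strand, an unnamed protein-coding gene counted at 41.9, 46.9 and 42.1 CPM in the 3 groups, so its level is uncertain. FANCL (chr2:58159243-58241410), the subunit with the ligase activity, went from 7.72, 7.60, 6.04, 6.08 and 6.66 CPM to 2.04, 2.46 and 2.69 CPM (lowest, median, highest). FANCC fell by 0.45 (SE 0.13, edgeR adjusted p 0.0063), with overlapping libraries. Its call was lost with VM libraries only (edgeR adjusted p 0.0531) and with siRNA number 4 libraries only (edgeR adjusted p 0.196). FANCM, the translocase that anchors the complex on DNA, was not called (-0.15, 95% interval -0.45 to 0.15), at 5.89 ± 0.337 CPM (n = 5) and 5.31 ± 1.20 CPM (n = 6).

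The substrates of that ligase both fell. FANCD2 (chr3:10026370-10101932) was at 8.76, 10.3, 7.15, 7.51 and 5.82 CPM in DMSO and at 0.436, 0.578 and 0.791 CPM in 4OHT siNT (log2 fold change -3.75, SE 0.20, edgeR adjusted p 1.28e-11). That left 7.43% of FANCD2, from 20 to 36 counts a library, against 26.9% of FANCI (-1.89, SE 0.14). Per kilobase of exon, FANCD2 was at 0.667 CPM in DMSO and 0.0496 CPM in 4OHT siNT, while FANCI was at 1.21 and 0.325 CPM. The median over the 33 members in DMSO was 0.953 CPM per kilobase of all annotated exons, and 1.95 CPM with the longest transcript as the length.

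In mismatch repair, MSH6 (chr2:47695530-47810063), which recognises mispaired bases, was at 62.7, 58.9, 51.04, 57.4 and 54.7 CPM in DMSO and at 29.3, 30.6 and 33.6 CPM in 4OHT siNT. It fell by 0.88 (SE 0.09, edgeR adjusted p 9.04e-08) without overlap. PMS2, the nicking subunit, was not called (-0.05, 95% interval -0.24 to 0.14), at 10.7 ± 0.723 and 10.3 ± 1.08 CPM. PMS2 has many pseudogene copies, of which PMS2P1 alone held 3.33, 2.53 and 2.85 CPM in the 3 groups, so its value depends on how reads were divided among copies.

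The kinases divided. CHEK1 (chr11:125625163-125676255), the effector of ATR in replicating cells, was at 22.3, 21.4, 16.8, 20.2 and 17.9 CPM in DMSO and at 8.96, 10.3 and 11.2 CPM in 4OHT siNT (log2 fold change -0.96, SE 0.10, edgeR adjusted p 1.44e-07). CHEK2, the effector of ATM, was not called (0.08, 95% interval -0.14 to 0.30), nor was ATR (0.16, 95% interval -0.10 to 0.42). In 1 of 30 alternative fits, with the V or VM tag as a covariate, ATR was called higher (0.30, edgeR adjusted p 0.0283). ATM (chr11:108223044-108369102), the kinase activated by broken DNA, was at 34.1, 38.8, 25.9, 32.9 and 22.9 CPM in DMSO and at 38.2, 43.0 and 50.02 CPM in 4OHT siNT. The groups overlapped by 1 DMSO library, and the rise was 0.50 (SE 0.14, edgeR adjusted p 0.00447). With the siRNA number 2 libraries alone it was 0.34 (edgeR adjusted p 0.134).

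In the MRN complex, which binds DNA ends first, MRE11 fell by 0.79 (SE 0.09, edgeR adjusted p 2.54e-07), from 14.4 ± 1.45 to 8.32 ± 0.456 CPM, without overlap. Its partners RAD50 (-0.15, 95% interval -0.36 to 0.06) and NBN (0.16, 95% interval -0.03 to 0.35) were not called. Among 30 alternative fits RAD50 was called lower in 2 and NBN higher in 2. With siRNA number 4 libraries only, RAD50 was at -0.40 (edgeR adjusted p 0.0473). RAD50 overlaps, on the same strand, an unnamed protein-coding gene counted at 28.04, 24.8 and 26.1 CPM in the 3 groups, about as much as RAD50 itself, so its level is uncertain. TP53BP1, which restrains resection and favours end joining, was not called either (0.22, 95% interval -0.04 to 0.49). The log2 ratio of TP53BP1 to BRCA1 in CPM was 3.02 to 3.37 in DMSO libraries and 4.53 to 5.09 in 4OHT siNT libraries.

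**Figure D2:**
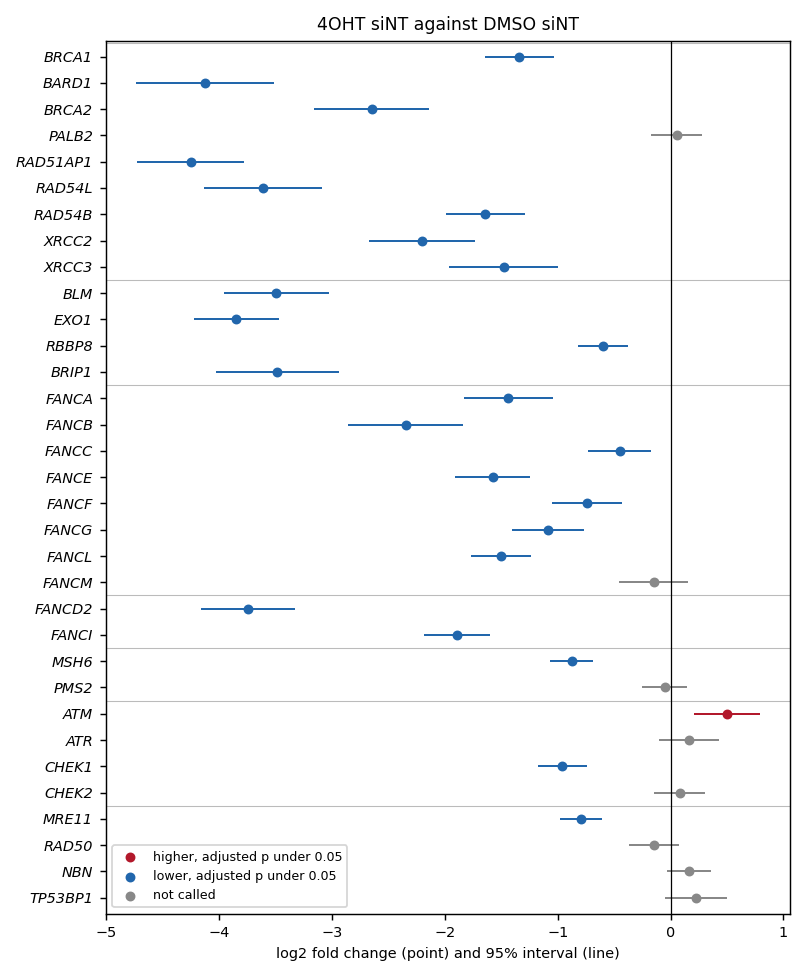
Log2 fold change of each member in 4OHT siNT (n = 6) against DMSO siNT (n = 5), with its 95% interval from edgeR's quasi-likelihood fit; blue is called lower, red called higher and grey not called, and lines part the roles. The 24 blue points reach from -0.45 (FANCC) to -4.25 (RAD51AP1), ATM is the red point at 0.50, and 6 of the 8 grey points are in the lowest 3 roles.

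Senescent cells with siSMARCA4 were then compared with siNT, to ask what loss of SMARCA4 changed within senescence. Of the 33 members 5 were called (15.2%), where 24.2% of all genes were: 4 were higher (10.4% of all genes) and 1 was lower (13.8% of all genes). The share of members called thus lay below that of all genes. RAD51AP1, BLM, RBBP8 and FANCL were higher, and CHEK1 was lower. The median over members was 0.05, against -0.02 over all genes, and 8 members had an unadjusted edgeR p under 0.05. No share of all genes was taken at that unadjusted level, here or below, so such counts cannot be read against it. In 3 members every siSMARCA4 library lay above every siNT library and in 1 every library lay below (12% of all genes did not overlap in either direction).

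RAD51AP1 was at 0.498, 0.664 and 1.14 CPM (lowest, median, highest) in siSMARCA4, against 0.254, 0.412 and 0.497 CPM in siNT. The lowest siSMARCA4 library stood just above the highest siNT library, and the counts behind these levels were 30 to 58 and 14 to 25 a library. The log2 rise was 0.83 (SE 0.22, adjusted p 0.00995), and it took the mean from 5.23% to 9.32% of the DMSO level. BLM was at 0.464, 0.680 and 0.888 CPM, against 0.284, 0.341 and 0.602 CPM. A single siNT library, 2-3VM, overlapped the siSMARCA4 range. The rise of 0.85 (SE 0.21, edgeR adjusted p 0.00786) took BLM from 8.92% to 15.9% of the DMSO level.

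RBBP8 was at 13.1, 14.7 and 19.3 CPM in siSMARCA4, against 10.3, 11.2 and 12.6 CPM in siNT, a rise of 0.42 (SE 0.10, edgeR adjusted p 0.00433) without overlap. It went from 66.0% to 88.4% of the DMSO level, and the difference from DMSO was no longer called (-0.18, 95% interval -0.39 to 0.03). RBBP8 rests on 432 or more counts in every library, where BLM and RAD51AP1 go down to 14. FANCL was at 2.80, 3.35 and 4.02 CPM, against 2.04, 2.46 and 2.69 CPM, a rise of 0.47 (SE 0.12, edgeR adjusted p 0.00827) without overlap. It went from 35.2% to 48.8% of the DMSO level.

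CHEK1 went the other way. It was at 6.22, 7.67 and 8.46 CPM in siSMARCA4, against 8.96, 10.3 and 11.2 CPM in siNT, and the groups did not overlap (log2 fold change -0.42, SE 0.10, edgeR adjusted p 0.00405). Its level was 51.4% of DMSO with siNT and 38.3% with siSMARCA4. The log2 ratio of CHEK1 to CHEK2 in CPM went from 1.58 to 1.85 in DMSO libraries, through 0.43 to 0.99 in 4OHT siNT, to -0.34 to 0.30 in siSMARCA4, with no overlap between the 3 groups. CHEK1 overlaps STT3A on the same strand, which was counted at 185.5, 211 and 173 CPM in the 3 groups.

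**Figure D3:**
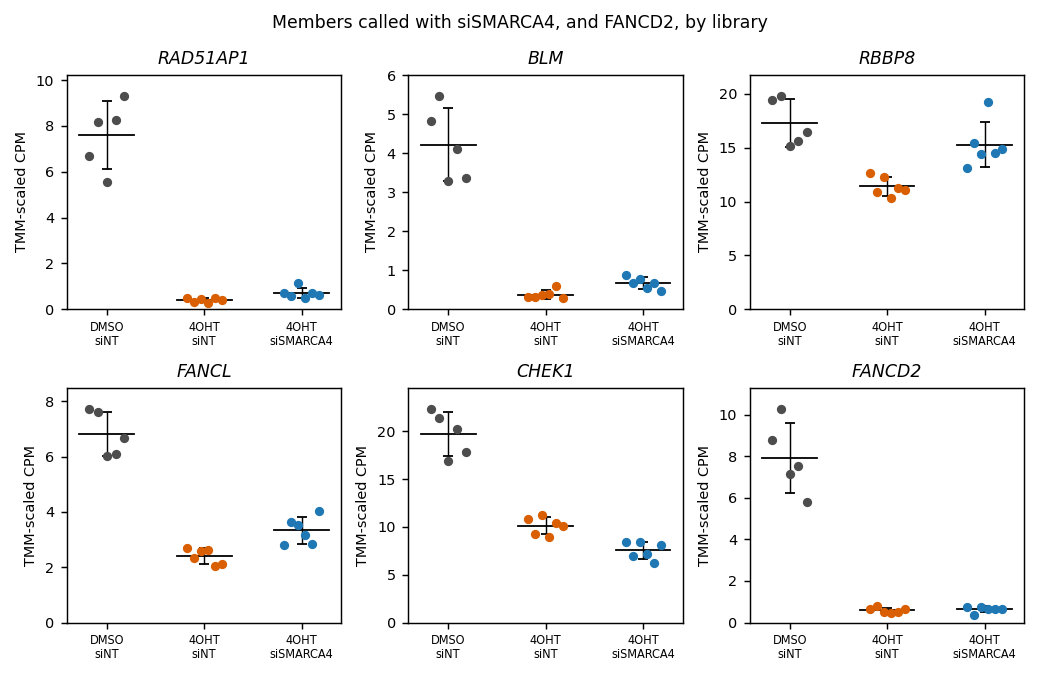
TMM-scaled CPM of the 5 members called with siSMARCA4 and of FANCD2, with axes from 0; each point is 1 library, the long bar the group mean and the whiskers its SD. RBBP8 in siSMARCA4 (13.1 to 19.3 CPM) overlaps the DMSO range, whereas RAD51AP1, BLM and FANCL stay below it and CHEK1 lies lower than in siNT.

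These calls were not all kept in parts of the data, although all 5 members kept their direction with either siRNA number. With the number 2 libraries alone (3 in each 4OHT group) 3 members were called, CHEK1 among them with XRCC3 and FANCF, and with number 4 alone only RBBP8 was. RAD51AP1 rose by 0.82 with number 2 and by 0.93 with number 4 (adjusted p 0.0669 and 0.0622), and BLM by 0.92 and 0.84 (0.0518 and 0.091). RBBP8 rose by 0.29 and 0.63 (0.112 and 0.028), and FANCL by 0.48 and 0.54 (0.0726 and 0.103). CHEK1 was at -0.41 and -0.36 (0.0451 and 0.132). With VM libraries only, 5 members were called: RAD51AP1, BLM, RBBP8, CHEK1 and MSH6 (-0.32), but not FANCL (0.36, adjusted p 0.0593).

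The other 28 members were not called. Among those that were below -3 with 4OHT were EXO1 at 0.11 (95% interval -0.25 to 0.48) and FANCD2 at 0.13 (-0.27 to 0.54). Also among them were BRIP1 at -0.09 (-0.62 to 0.43), RAD54L at 0.25 (-0.26 to 0.76) and BARD1 at 0.38 (-0.24 to 1.00). The value for BARD1 lay at 0.23 without 4OHT siNT 4-1VM and at 0.59 without 4OHT siNT 2-2VM. BRCA1 was at 0.32 (SE 0.14, edgeR adjusted p 0.0985). It was called in 1 of 30 alternative fits (edgeR adjusted p 0.03975), and lay at 0.27 to 0.40 when single libraries were left out. The intervals of EXO1 and FANCD2 exclude a rise of the size fitted for BLM, while that of BARD1 does not. The interval of BLM itself, 0.40 to 1.29, overlaps those of EXO1, FANCD2 and BARD1. Differences between genes were not tested. FANCI, MSH6, PMS2, ATM, ATR, MRE11, RAD50 and NBN lay between -0.17 and 0.12. TP53BP1 was at -0.33 (SE 0.12) and missed the threshold (edgeR adjusted p 0.0535). It was called lower in 8 of 30 alternative fits, DESeq2 among them (-0.32, adjusted p 0.0444). Its siSMARCA4 libraries lay between 70.9 and 96.9 CPM and its siNT libraries between 81.1 and 113 CPM. MSH6 was at -0.17 (edgeR adjusted p 0.162) and was called lower in 4 of 30 alternative fits. With the V or VM tag as a covariate MSH6 was at -0.30 (edgeR adjusted p 0.00548), a fit that also called TP53BP1 (-0.42, adjusted p 0.0231).

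**Figure D4:**
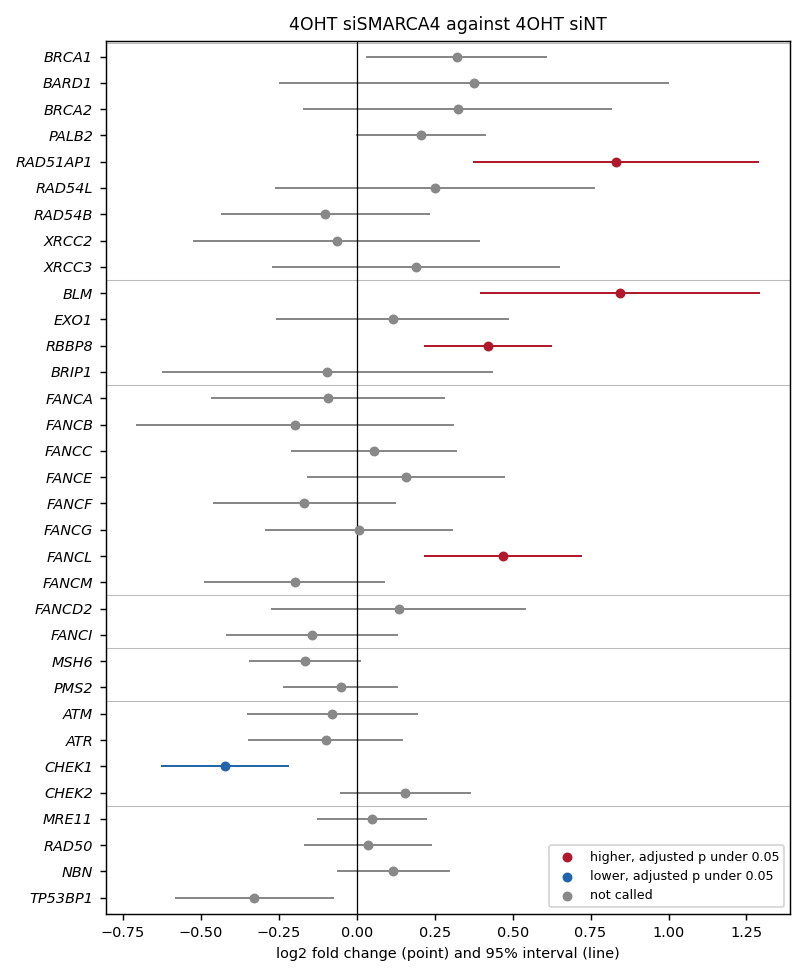
Log2 fold change of each member in 4OHT siSMARCA4 (n = 6) against 4OHT siNT (n = 6), with its 95% interval from edgeR's quasi-likelihood fit; colours and lines as in the plot of the 4OHT change. The 4 intervals in red (RAD51AP1, BLM, RBBP8 and FANCL) lie above 0 and CHEK1 in blue lies below. Those of BARD1, BRIP1, RAD54L and FANCB, members with few counts, are wider than 1 on the log2 scale.

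Of 21 proliferation genes 5 were called higher and 2 lower in that comparison, where 10.4% and 13.8% of all genes were. CDK1, the mitotic kinase, rose from 0.504 to 1.35 CPM (log2 fold change 1.39) and RRM2, a subunit of ribonucleotide reductase, to 8.82 CPM (0.90), while MCM3 (-0.55) and AURKA (-0.41) fell. The summed level of the list was 221 ± 12.0 CPM in siNT and 213 ± 15.8 CPM in siSMARCA4 (n = 6 each), against 908 ± 123 CPM in DMSO. The part of these genes in the rise of RAD51AP1 and BLM was not tested.

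Set against DMSO siNT, the 4OHT siSMARCA4 libraries had 24 members lower, 3 higher (PALB2, ATM and NBN) and 6 not called. The called share was 81.8%, where 55.1% of all genes were called, 28.6% lower and 26.5% higher. This comparison shares its DMSO libraries with that of 4OHT siNT. EXO1 was at 7.48% of DMSO with siSMARCA4 and 6.88% with siNT, FANCD2 at 8.15% and 7.43%, BRIP1 at 8.37% and 8.92%, and BRCA2 at 19.9% and 15.8%. NBN was at 121% of DMSO with siSMARCA4 (log2 fold change 0.28, SE 0.09, edgeR adjusted p 0.0126), where its libraries, at 63.4 to 73.7 CPM, lay above all DMSO libraries, at 49.8 to 59.9 CPM. FANCM was lower (-0.35, SE 0.14, edgeR adjusted p 0.0455), and its direct comparison between siSMARCA4 and siNT was not called (-0.20, edgeR adjusted p 0.316, with overlapping libraries).

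FANCF and XRCC3 were called with siSMARCA4 in the number 2 libraries but not over all libraries, so the numbers were compared. The difference of the knockdown effect between the numbers was called by edgeR for 0 of 33 members, where 1.06% of all genes (207) were called. That number rested on single libraries: it was 17 genes without siSMARCA4 2-3VM and 845 without siSMARCA4 4-2VM, and 0 to 1 members were called when any one library was left out. At an unadjusted edgeR p under 0.05 there were 5 members, with no share taken over all genes, and DESeq2 called 2. FANCF came nearest, at -0.84 for number 2 minus number 4 (edgeR adjusted p 0.0537), followed by NBN at -0.43 (0.0993). With siSMARCA4 against siNT, FANCF was at -0.56 with number 2 (adjusted p 0.0127) and 0.27 with number 4, and XRCC3 at 0.78 (adjusted p 0.0105) and -0.22. Within 4OHT siNT, the 3 number 2 libraries and the 3 number 4 libraries did not overlap for 12 members, 7 higher with number 2 and 5 higher with number 4. Of all genes, 20.8% and 15.8% did so, close to the shares of the members. NBN was at 68.6, 70.1 and 68.99 CPM with number 2 and at 49.8, 53.7 and 57.03 CPM with number 4. Against DMSO libraries of the same number, NBN rose by 0.30 with number 2 (edgeR adjusted p 0.00175) and was at -0.08 with number 4 (0.643). TP53BP1 was higher with number 4, at 109 to 113 CPM, than with number 2, at 81.1 to 101.04 CPM. Whether the numbers stand for different oligonucleotides is not given in the labels.

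**Figure D5:**
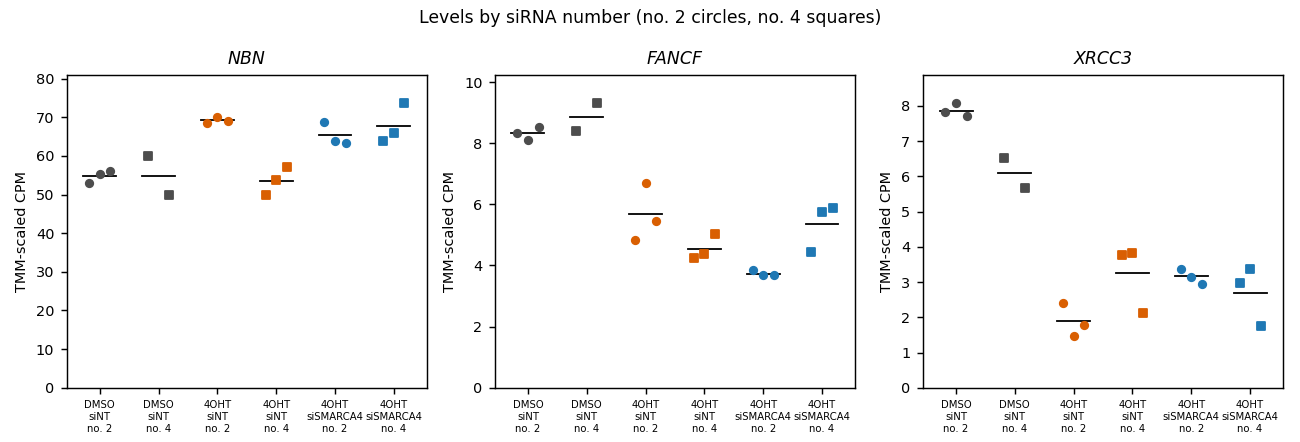
TMM-scaled CPM of NBN, FANCF and XRCC3 by group and siRNA number (circles number 2, squares number 4), with axes from 0; each point is 1 library and each bar the mean of its points, without an error bar because 2 or 3 libraries stand behind it. In 4OHT siNT the number 2 libraries of NBN (68.6 to 70.1 CPM) lie above those of number 4 (49.8 to 57.03 CPM), and in siSMARCA4 the FANCF libraries of number 2 lie below those of number 4.

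Other genes of these pathways, from lists given by name, were read against the shares of all genes called, which were 54.4% with 4OHT (27% higher, 27.4% lower) and 24.2% with siSMARCA4 (10.4% higher, 13.8% lower). Of 38 further recombination genes 21 were lower and 6 higher with 4OHT, with a median of -0.39. The largest falls were those of MND1 (-2.90) and RMI2 (-2.73), a subunit of the BLM complex, and the largest rises those of HELB (0.79) and SLX4 (0.72). With siSMARCA4, 3 were higher and 1 was lower, a smaller share than over all genes. SFR1, a recombination mediator, rose by 0.65 and RMI1, which binds BLM, by 0.55, while MCM8 fell by 0.37. Of 14 further Fanconi genes 7 were lower and 2 higher with 4OHT. USP1, which removes ubiquitin from FANCD2, fell by 1.80 and FAAP24 by 1.60, while ERCC1, a nuclease subunit, rose by 1.52 from 81.7 to 234 CPM. With siSMARCA4, UBE2T, the ubiquitin-conjugating partner of FANCL, rose by 0.55 from 4.91 ± 0.585 to 7.20 ± 1.07 CPM (n = 6 each, edgeR adjusted p 0.00126), ERCC1 rose by 0.29 and DCLRE1A fell by 0.44.

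Of 3 further mismatch repair genes edgeR called 0 with 4OHT or with siSMARCA4, while 1 had an unadjusted p under 0.05 in each and DESeq2 called 1 with 4OHT. Of 25 genes of damage signalling and fork protection 12 were lower and 2 higher with 4OHT, with a median of -0.31. Together they were close to the share of all genes called, but most were lower, where all genes were split about evenly. The lowest were CLSPN, the adaptor through which ATR activates CHEK1, at -4.54, and ETAA1, an ATR activator, at -1.48. Both rose with siSMARCA4, CLSPN by 0.90 (0.657 to 1.23 CPM) and ETAA1 by 0.72 (4.52 to 7.48 CPM). In this list 6 were higher and 4 lower, with MDC1 at -0.44 and RNF168 at -0.36, both of the chromatin response that recruits TP53BP1. Of 13 end joining genes 6 were lower with 4OHT, led by POLQ (-3.78) and XRCC4 (-1.29), 2 were higher (POLM at 0.70 and LIG4 at 0.41), and edgeR called 0 with siSMARCA4, where 2 had an unadjusted p under 0.05 and DESeq2 called 1. Of 28 excision repair genes 9 were lower and 9 higher with 4OHT, from NEIL3 at -4.51 and FEN1 at -1.09 to XRCC1 at 0.72. With siSMARCA4, 8 were lower and 3 higher, with LIG1 at -0.53, XPC at -0.42 and NEIL3 at 0.93. NEIL3 rests on few counts, at 0.146 CPM in siNT and 0.275 CPM in siSMARCA4 (edgeR adjusted p 0.0308). Of 18 E2F, DREAM and MuvB regulators 12 were lower and 5 higher with 4OHT. The largest falls were those of E2F8 at -5.80 (1.25 to 0.0199 CPM, thus few counts) and MYBL2 at -5.29. The largest rise was that of E2F7 at 2.38 (22.01 to 114 CPM). With siSMARCA4, 3 were higher, among them E2F5 (0.53) and LIN9 (0.52), and the other 15 were not called.

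Among the DMSO libraries, 4-3VM was the lowest of 5 in 18 members and 2-2VM in 13, while these libraries were lowest in 34.5% and 19.5% of all genes. The highest was 2-2V in 17 members and in 11.1% of all genes. It also had the highest summed proliferation level, at 1078 CPM against 771 to 977 CPM in the others. Without 4-3VM, 25 members were still called with 4OHT, and without 2-2VM 26 were.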

How the data were processed

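Polyadenylated RNA of 17 libraries was sequenced with strand kept. The authors trimmed reads with Cutadapt 4.7, aligned them to GRCh38 with HISAT2 2.2.1 and counted them with TElocal, which divides reads with several positions by maximum likelihood. The deposited values are expected counts per gene and repeat locus, given in whole numbers with no normalisation. Gene positions, symbols and exon lengths came from GENCODE 44, whose gene IDs were all in the tables.

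Genes were tested together with repeat subfamily sums after edgeR's filterByExpr (minimum count 10, minimum total 15), with TMM scaling and a quasi-likelihood fit of 1 term per group over all 17 libraries (edgeR 4.0.16, R 4.3.3). P-values were adjusted by Benjamini-Hochberg over all 19473 genes, and intervals are 95%. On data simulated for 4OHT siNT against DMSO siNT (19123 genes), edgeR recovered 98% of 100 genes changed 2-fold. The counts were drawn independently with a fixed dispersion, and only genes above a minimum expected count were changed. This recovery does not cover members with few counts, smaller changes or the siSMARCA4 comparison. DESeq2 1.42.0 served as an alternative. Depth was 39109479 to 68978119 counts a library, so a member at 0.3 CPM rests on few counts, and intervals for it are wide.

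The members and lists were chosen with earlier results of these data known. Named were all members, SMARCA4, the markers used for the cell type check and, of each other list, up to 2 genes with the largest rise and fall among those called.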

Additional observations from a re-analysis of the deposited data

Results flagged for a closer look

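In each group of 5 or 6 libraries the highest and lowest value of every member was compared with the rest (Dixon's 95% limit). Of 99 groups 8 held a library set apart, and chance alone gives about 1 in 20. In 4OHT siSMARCA4, RAD51AP1 was 1.14 CPM in 2-3VM against 0.498 to 0.724 CPM in the others, and RAD54L was 0.848 CPM in 2-1VM against 0.366 to 0.526 CPM. RBBP8 was 19.3 CPM in 4-2V against 13.1 to 15.4 CPM, and FANCI was 6.61 CPM in 4-3V against 4.67 to 5.29 CPM. XRCC3 was low in 4-3V, at 1.74 CPM against 2.95 to 3.37 CPM, and FANCD2 was low in 2-3V, at 0.375 CPM against 0.657 to 0.750 CPM. In 4OHT siNT, BLM was 0.602 CPM in 2-3VM against 0.284 to 0.381 CPM. In DMSO siNT, RAD50 was low in 2-2VM, at 22.4 CPM against 29.4 to 32.2 CPM. RAD51AP1, RBBP8 and BLM kept their calls with siSMARCA4 when any single library was left out.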

How the results depend on the processing

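Each comparison between groups was refitted under 30 alternatives, the difference between siRNA numbers under 21 and each other list with DESeq2. With 4OHT, 24 to 26 members were called, and 23 of 25 called members kept their call throughout; ATM and FANCC did not. With siSMARCA4, 5 members were called and 14 of 150 refitted values lost the call, all among the subsets by siRNA number, the VM libraries and the block on whole labels: 3 members were called with siRNA number 2 only (4479 genes in all) and 1 with number 4 only (1198). Correlations of the deviations of libraries with the same whole label ran from -0.45 to 0.208 with 4OHT and from -0.105 to 0.297 with siSMARCA4. For libraries that share a replicate number but not the siRNA number they ran from 0.231 to 0.531 and from -0.261 to 0.101. Signs were thus mixed among libraries with the same replicate number, and neither label was taken to pair them. With the whole label as a replicate block all 5 members lost their call with siSMARCA4 (adjusted p 0.0522 for RAD51AP1, 0.057 for BLM, 0.125 for RBBP8, 0.282 for FANCL and 0.0635 for CHEK1). The 1 member called was MSH6 (-0.34, adjusted p 0.0389), with 3045 genes in all, and 6329 genes were called against DMSO. With 4OHT this block lost FANCC (-0.40, adjusted p 0.0608). The block on replicate number called 5 members with siSMARCA4. The difference between siRNA numbers gave 2 members and 714 genes with DESeq2, 791 genes without a low-count filter, and 0 to 1 members and 17 to 845 genes when single libraries were left out; the lowest and highest gene counts were without siSMARCA4 2-3VM and 4-2VM. DESeq2 called 6 further Fanconi genes with siSMARCA4, where edgeR called 3, and 1 where edgeR called 0 for mismatch repair with 4OHT and end joining with siSMARCA4. The longest transcript as length gave a median of 1.95 CPM per kilobase, and the shorter promoter window left 1 member with the cell cycle homology letters. SMARCA4 with siSMARCA4 ranged from -1.89 to -1.54.

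Members that were not called changed sign in places. With 4OHT, siRNA number 2 only gave CHEK2 -0.016, FANCM 0.051, PMS2 0.014 and TP53BP1 -0.061, number 4 only gave NBN -0.080, and leaving out single libraries gave PALB2 -0.023 to 0.084 and CHEK2 -0.026 to 0.11. With siSMARCA4, number 4 only gave ATR 0.067, BRIP1 0.39, EXO1 -0.025, FANCB 0.033, FANCC -0.059, FANCF 0.27, FANCG -0.12, FANCM 0.11, PMS2 0.14, RAD54B 0.17, RAD54L -0.23 and XRCC3 -0.22, and number 2 only gave FANCA 0.21, FANCI 0.018, NBN -0.044 and XRCC2 0.25. VM libraries only gave FANCG -0.060, RAD54B 0.021 and XRCC2 0.27, the tag as covariate FANCG -0.098 and XRCC2 0.049, summed V and VM libraries FANCG -0.0061, the block on replicate number FANCA 0.0044, and that on whole labels XRCC2 0.30. Leaving out single libraries gave BRIP1 -0.23 to 0.056, FANCA -0.18 to 0.048, FANCC -0.015 to 0.099, FANCG -0.067 to 0.086, RAD50 -0.0099 to 0.078, RAD54B -0.20 to 0.018 and XRCC2 -0.21 to 0.10. The causes were not tested.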
